A study of Mus musculus with 9 samples.

Results

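The levels of 34 imprinted genes were described in ovaries of juvenile mice on postnatal day (PD) 14, PD15 and PD16. The members were taken by symbol from a list of well-known mouse imprinted genes, and all 34 were found in the deposited tables, 1 row each, among 52025 genes. Of these, 24 had a mean level above 1 FPKM on at least 1 day and entered the tests with 15495 genes in all, and 10 were below that limit. FPKM count fragments relative to transcript length and sequencing depth, which puts levels of different genes on a common scale. The scale is not reliable for every gene, since Gapdh, which all cells use and which has many copies in the genome, was listed at only 1.86 to 11.3 FPKM, so levels of members with copies or shared exons are uncertain.

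Imprinted genes are expressed from only the maternal or only the paternal copy, according to methylation that is laid down in the germ line and kept in somatic cells. Many of them sit in domains where a shared control region sets the state of several neighbours, and many act on growth, metabolism or the cell cycle. In the ovary the imprints of the oocyte are erased in the fetal germ cells and maternal marks are written anew while the oocyte grows, whereas the granulosa, theca and stromal cells around it carry the somatic imprints. The total of both copies was measured here, so the parental origin of a transcript was not resolved.

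Ovaries of Kunming mice were collected at 14, 15 and 16 days of age, the days on which antral follicles form in the first wave of follicles, and the question was how transcripts change over these days. The data comprised 9 libraries, 3 for each day, prepared from total RNA with a NEBNext Ultra kit. In the labels the tissue is ovary but the source is granulosa cells, and the study describes whole ovaries. Markers of several cell types were present in every library. The summed FPKM of 7 granulosa markers was 2468 to 3265, of 8 oocyte markers 957 to 1396, of 6 theca and steroidogenic markers 1134 to 2191 and of 7 stromal markers 499 to 631, while 4 oviduct markers summed to at most 2.29. The libraries were therefore treated as ovary, a mixture in which fewer cells of a type and less RNA per cell cannot be told apart. Depth was 20.4 to 28.7 M fragments per library. The study describes the 3 samples of a day as independent ovaries, and neither it nor the labels say whether these came from separate mice, so the p-values measure the spread between these ovaries.

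Sequences are shown for H19, one of the members that changed, and for Nap1l5, Mest and Peg3, whose promoter windows hold a searched motif or overlap that of a neighbour. H19, the maternally expressed long noncoding RNA whose level fell from PD14 to PD16, lies at chr7:142575529-142578143 on the minus strand (GRCm38, GENCODE M21). Its transcript holds the hairpin of miR-675, from which both arms of the mature miRNA are cut (chr7:142577112-142577133 for the 5p arm and chr7:142577078-142577099 for the 3p arm, RefSeq on GRCm38.p6). Capitals mark the seed, bases 2 to 8, which differs between the arms.
mmu-miR-675-5p: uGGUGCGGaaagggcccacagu
mmu-miR-675-3p: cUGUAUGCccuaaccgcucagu

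Promoter windows of 300 bases, 250 before to 50 after the RefSeq start on GRCm38.p6, were present for 28 of the 34 members, in 41 windows. No entry was found for H19, Cdkn1c, Peg10, Sgce, Rtl1 and Impact. The motif TGCCGC, the core that the imprint-keeping protein ZFP57 binds when it is methylated, was searched on both strands, where it reads GCGGCA on the other strand. It occurred in 10 of the 41 windows (24.4%), against 11.6% of 32851 windows of all genes. Windows of a gene can overlap, and 2 of the 10 are windows of Mest that hold the same matches. The 9 members with a match were Grb10, Mcts2, Meg3, Mest, Nap1l5, Nnat, Plagl1, Snrpn and Zim1. The median number of CG dinucleotides in a window was 12 for the members and 7 for all genes. A match describes the letters only, and methylation or binding was not measured.

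The window of Nap1l5, the most abundant member, and a window of Mest each hold 2 matches, in capitals. Nap1l5 is read on the minus strand (chr6:58907077-58907376) and Mest on the plus strand (chr6:30737800-30738099).
Nap1l5: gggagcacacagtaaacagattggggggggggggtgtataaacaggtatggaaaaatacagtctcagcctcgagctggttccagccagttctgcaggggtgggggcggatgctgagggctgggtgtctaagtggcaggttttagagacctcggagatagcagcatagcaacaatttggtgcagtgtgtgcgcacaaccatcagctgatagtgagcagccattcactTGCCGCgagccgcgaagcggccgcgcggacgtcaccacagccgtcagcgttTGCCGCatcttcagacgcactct
Mest: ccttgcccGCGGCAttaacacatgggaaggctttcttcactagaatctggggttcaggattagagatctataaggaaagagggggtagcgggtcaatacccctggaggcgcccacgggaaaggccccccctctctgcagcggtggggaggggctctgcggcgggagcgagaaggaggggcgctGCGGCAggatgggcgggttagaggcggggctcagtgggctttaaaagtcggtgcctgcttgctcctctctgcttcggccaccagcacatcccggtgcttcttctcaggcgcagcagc

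The window of Peg3 is read on the minus strand (chr7:6730370-6730669). Its capitals mark the 263 bases that it shares with the window of Usp29, which is transcribed away from it on the plus strand.
Peg3: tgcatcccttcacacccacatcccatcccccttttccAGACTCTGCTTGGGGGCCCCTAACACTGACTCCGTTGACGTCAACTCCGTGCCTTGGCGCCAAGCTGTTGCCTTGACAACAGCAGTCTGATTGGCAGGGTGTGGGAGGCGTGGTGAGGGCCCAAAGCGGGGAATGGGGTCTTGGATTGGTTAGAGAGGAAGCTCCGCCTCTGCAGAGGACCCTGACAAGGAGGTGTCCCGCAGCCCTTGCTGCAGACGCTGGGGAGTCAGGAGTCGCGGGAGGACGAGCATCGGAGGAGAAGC

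The members spanned from 0 to 210 FPKM (plot of levels by domain). By the mean of the 9 libraries, 2 members were above 100 FPKM, 9 between 10 and 100, 13 between 1 and 10 and 8 below 1, and 2 were listed at 0 throughout. All 24 members tested exceeded a mean of 1 FPKM on each of the 3 days.

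**Figure D1:**
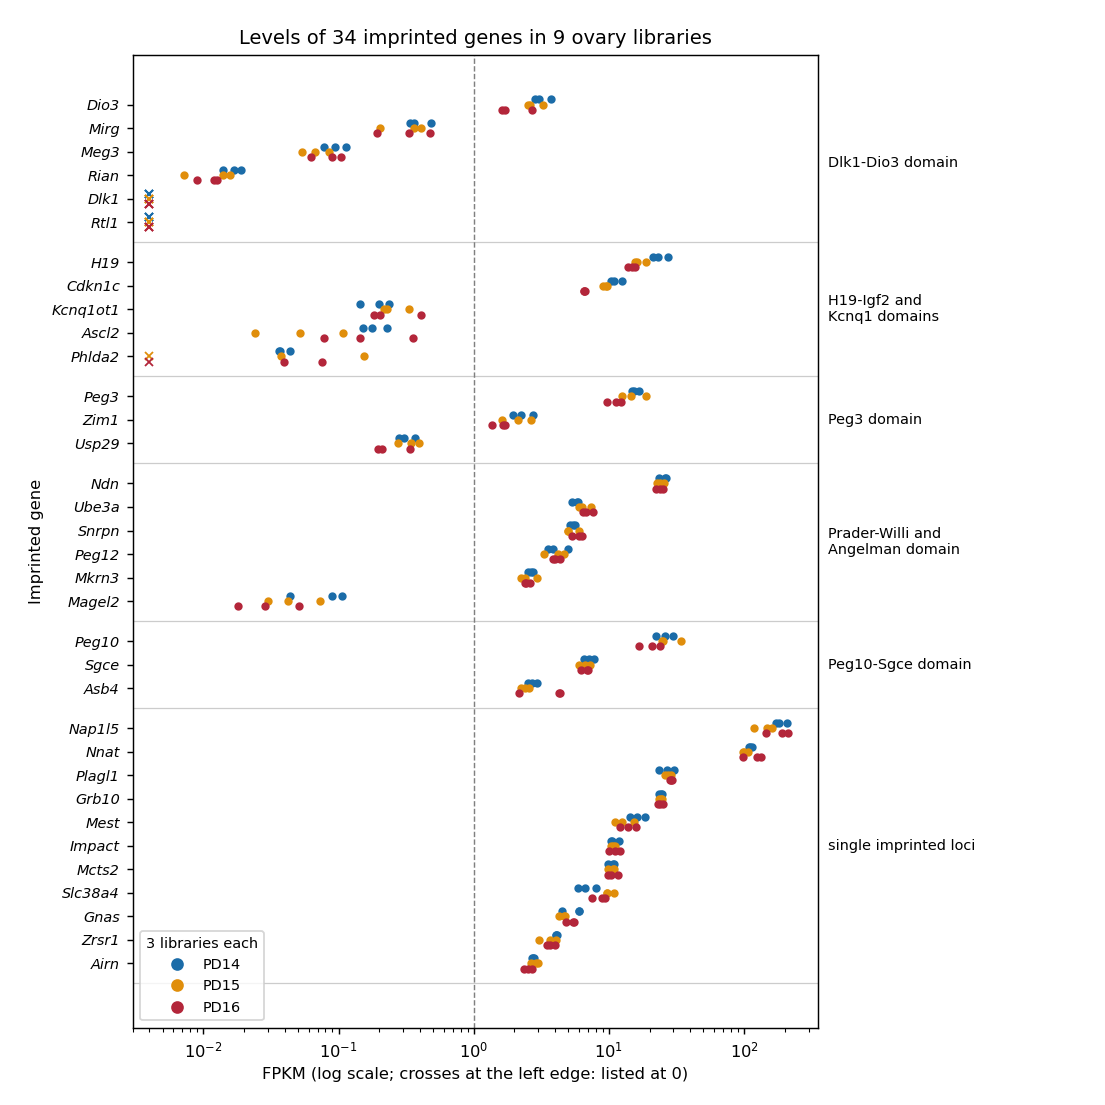
FPKM (log scale) of 34 imprinted genes in 9 ovary libraries, grouped by imprinted domain, with 1 point per library coloured by day. Crosses at the left edge mark libraries in which a gene is listed at 0, and the dashed line marks 1 FPKM. Nap1l5 and Nnat lie furthest to the right, and Dlk1 and Rtl1 are listed at 0 in all libraries.

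From PD14 to PD16, Cdkn1c and H19 fell, and no member passed the test as higher. These are 2 of the 24 members tested, where 1.89% of all genes tested fell and 2.36% rose. Cdkn1c is maternally expressed and encodes a cyclin-dependent kinase inhibitor that holds cells out of the cycle, and H19 is the noncoding partner of the growth factor gene Igf2. Both lie in a cluster at the end of chromosome 7. Between neighbouring days, Cdkn1c fell from PD15 to PD16 and no member passed the test from PD14 to PD15.

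Cdkn1c (chr7:143458339-143461050, minus strand) measured 12.6, 10.9 and 10.4 FPKM in the 3 PD14 libraries, 9.73, 9.07 and 9.47 on PD15 and 6.53, 6.68 and 6.52 on PD16. The libraries of the 3 days did not overlap, with all PD14 libraries highest and all PD16 libraries lowest. From PD14 to PD16 the level fell by 0.69 on the log2 scale of FPKM + 1 (SE 0.07, 95% interval -0.85 to -0.54, limma adjusted p = 0.00419), and the mean FPKM fell by 41.7%. From PD15 to PD16 it fell by 0.46 on the same scale (95% interval -0.62 to -0.30, adjusted p = 0.0305), and the mean FPKM fell by 30.2%. This call was lost with the replicate number as a block (adjusted p = 0.0559), without the filter on low levels (0.0811) and when any 1 library of PD15 or PD16 was left out (0.0693 to 0.112). From PD14 to PD15 the log2 change was -0.23 and did not pass (adjusted p = 0.166). The values rest on 309 to 628 fragments per library. In GENCODE M21, 30.7% of the exon bases of Cdkn1c are shared with Gm44732 on the opposite strand, and the strand setting of the counting is not given in the sources used here.

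H19 measured 21.2, 23.1 and 27.4 FPKM on PD14, 15.6, 16.2 and 18.7 on PD15 and 14.8, 15.6 and 13.7 on PD16. All PD14 libraries were above all others, and every PD16 library was below every PD15 library, by as little as 15.60 against 15.65 FPKM. From PD14 to PD16 the level fell by 0.66 on the log2 scale (SE 0.10, 95% interval -0.88 to -0.44, limma adjusted p = 0.0143), and the mean FPKM fell by 38.5%. The call was lost without PD16 replicate 1, at a log2 change of -0.67 and an adjusted p of 0.0543. From PD14 to PD15 the log2 change was -0.48 (95% interval -0.70 to -0.25, adjusted p = 0.0763), and it passed only with libraries scaled to equal FPKM totals (adjusted p = 0.0331). From PD15 to PD16 the log2 change was -0.18 (adjusted p = 0.449). The miRNAs cut from H19 were not measured in these libraries.

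In limma's F test over the 3 days, 2 of the 24 members passed, Cdkn1c (adjusted p = 0.00663) and H19 (adjusted p = 0.0250), against 3.03% of all genes tested. Only 1 member passed with the replicate number as a block or without the filter on low levels. The count was also 1 when PD14 replicate 2, PD14 replicate 3, PD16 replicate 1 or PD16 replicate 3 was left out. Without PD16 replicate 2 it was 3. The day accounted for 95.01% of the sum of squares of Cdkn1c and 86.0% of that of H19. An exact permutation test over the 280 groupings of the 9 libraries gave p = 0.00357 for each, the smallest it can give. This p is not adjusted over the 24 members. The 2 members had already passed the F test on the same libraries, so the exact test is no independent support.

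From PD14 to PD16, 2 of 24 fell (8.33%) against 1.89% of all genes tested, and 0 rose against 2.36%. At an unadjusted p under 0.05, limma gave 7 members, 2 higher and 5 lower, against 22.8% of all genes. From PD15 to PD16, 1 member fell against 0.297% of all genes and 0 rose against 0.432%, and 4 members had an unadjusted p under 0.05, all lower, against 14.1% of all genes in either direction. From PD14 to PD15, limma called 0 members against 0.678% of all genes, and 5 had an unadjusted p under 0.05, 1 higher and 4 lower, against 14.7% of all genes. The median log2 change of the members was -0.06 from PD14 to PD15, -0.06 from PD14 to PD16 and 0.01 from PD15 to PD16, and that of all genes was 0.01 in each comparison. The log2 change was below 0 for 19 of 24 members from PD14 to PD15 against 48.1% of all genes, for 16 from PD14 to PD16 against 47.8% and for 11 from PD15 to PD16 against 46.8%.

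**Figure D2:**
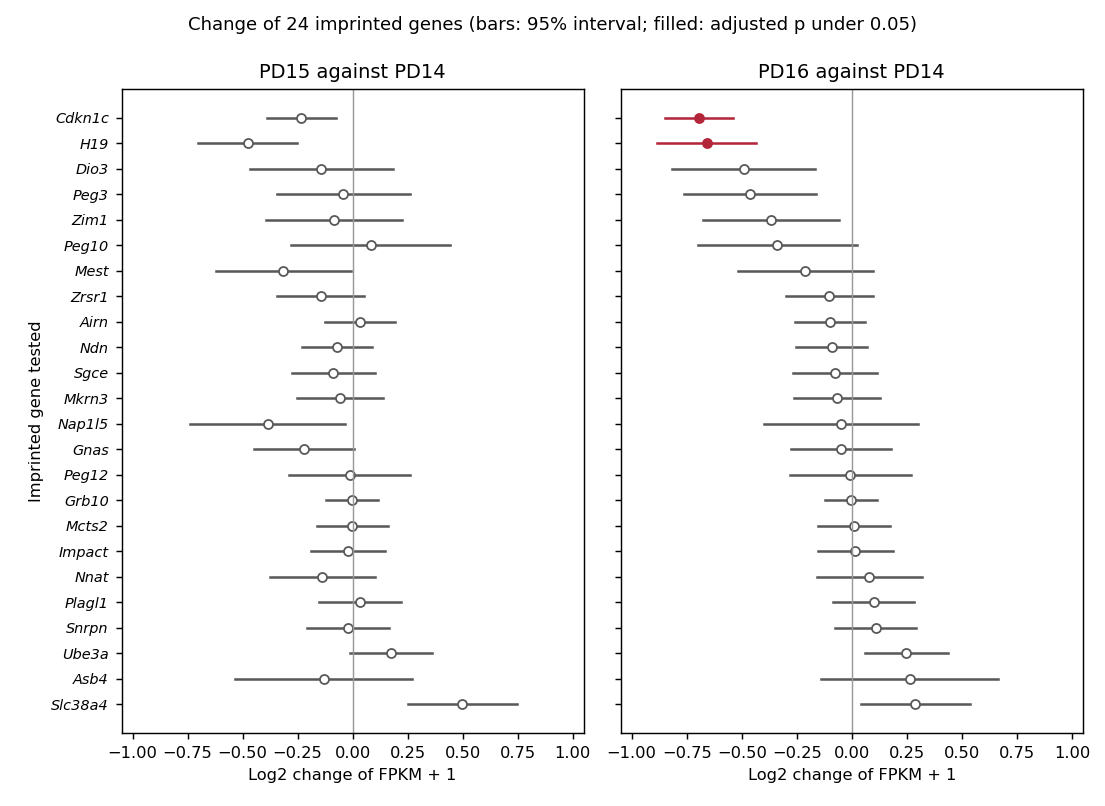
Log2 change of FPKM + 1 of 24 imprinted genes from PD14 to PD15 (left) and from PD14 to PD16 (right), in the order of the right panel. Points are limma estimates over 3 libraries per day, bars are 95% intervals, and filled points passed an adjusted p of 0.05. Cdkn1c and H19 pass in the right panel only, and both comparisons share the PD14 libraries.

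Summed levels of several cell-type marker lists also differed between the days. The summed FPKM of 5 surface epithelium markers was 51.4 to 58.6 on PD14, 45.7 to 51.8 on PD15 and 39.5 to 43.6 on PD16. Of the 4 of them tested, Krt8, Krt18 and Krt19 passed as lower from PD14 to PD16, while Upk3b did not, and the fifth, Muc16, stayed below 0.442 FPKM. The 5 endothelial markers summed to 56.6 to 59.7 on PD14 and 50.9 to 53.2 on PD16, and limma called 0 of them, with 2 at an unadjusted p under 0.05. The 6 theca and steroidogenic markers summed to 1559 to 2191 on PD14 and 1166 to 1581 on PD16, again with 0 called and 2 at an unadjusted p under 0.05. Most of this sum is Hsd3b1, with means of 1785 FPKM on PD14 and 1273 on PD16, and 4 of the 6 markers had a log2 change below 0 (median -0.25). The mean of Cyp11a1 was 46.8 on PD14 and 32.8 on PD16, that of Lhcgr 14.4 and 9.78, that of Insl3 4.25 and 4.14, that of Cyp17a1 28.9 and 37.1 and that of Star 3.89 and 5.58. The 8 oocyte markers summed to 1003 to 1228 on PD14, 1318 to 1396 on PD15 and 957 to 1025 on PD16. From PD15 to PD16, the interval in which Cdkn1c also fell, all 8 oocyte markers had a log2 change below 0, with a median of -0.38, and 2 passed as lower. From PD14 to PD16, 1 oocyte marker passed as higher and 5 were below 0. The 7 granulosa markers summed to 2646 to 3265 on PD14 and 2653 to 3126 on PD16. Most of this sum is Inha, with means of 2296 FPKM on PD14 and 2152 on PD16. From PD14 to PD16, Amh passed as higher (mean 176 and 245 FPKM) and Cyp19a1 as lower (5.11 and 2.37), with 4 of the 7 at an unadjusted p under 0.05. For Cyp19a1 and Cyp11a1 the study reports the other direction by quantitative RT-PCR, with a rise on PD15 and PD16. The 5 smooth muscle markers summed to 278 to 316 on PD14 and 304 to 405 on PD16, with 1 called higher from PD14 to PD16. The 5 blood markers summed to 105 to 147 on PD14, 46.4 to 63.2 on PD15 and 60.8 to 116 on PD16. The fat marker Plin1 passed as lower, while the defining fat markers Adipoq and Lep stayed at or below 0.122 FPKM. As a share of its PD14 mean, the surface epithelium sum was 72.7% to 80.2% in the PD16 libraries, against 57.4% to 65.2% for H19 and 57.8% to 59.2% for Cdkn1c. Upk3b, whose mean did not fall, is part of that sum, so the sum understates the fall of the keratins. The theca and steroidogenic sum was 61.9% to 83.9%, the blood sum 47.0% to 89.95% and the fat sum 57.0% to 80.1% of the PD14 mean, ranges that overlap that of H19, and the blood and fat ranges also hold that of Cdkn1c. The part of these cells in the result was not tested.

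**Figure D3:**
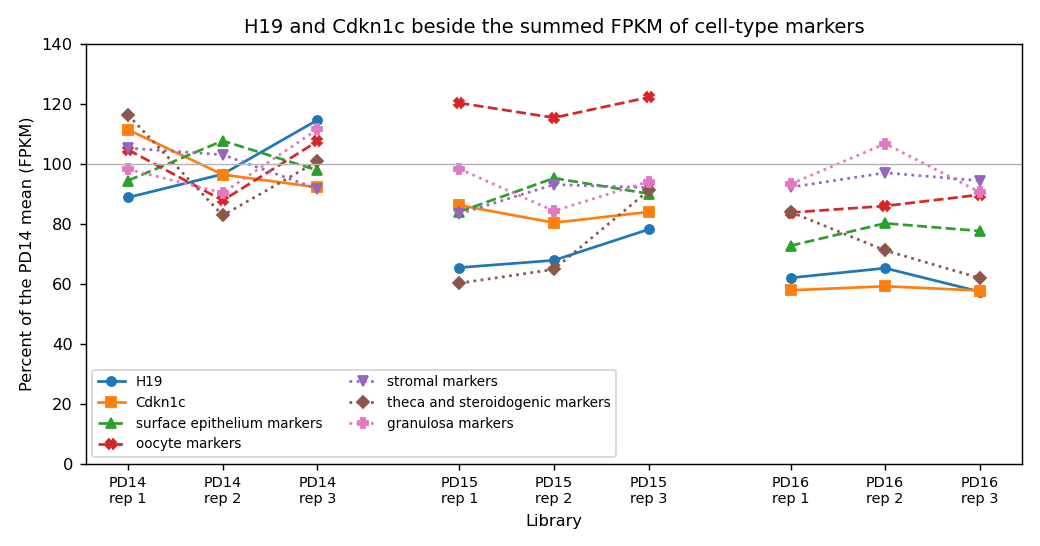
FPKM of H19 and Cdkn1c and summed FPKM of the surface epithelium, oocyte, stromal, theca and steroidogenic and granulosa markers in each of the 9 libraries, as percent of the PD14 mean. Lines join libraries of a day for reading only. In the PD16 libraries H19 and Cdkn1c lie at 57.4% to 65.2% and the surface epithelium sum at 72.7% to 80.2%. That sum includes Upk3b, whose mean did not fall as those of the keratins did. The theca and steroidogenic sum, mostly Hsd3b1, lies at 61.9% to 83.9% and overlaps H19. The granulosa sum is mostly Inha.

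The other members of this chromosome 7 cluster were low in FPKM. Kcnq1ot1, the paternally expressed antisense RNA that silences Cdkn1c in cis, measured 0.144 to 0.405 FPKM, while Kcnq1, in which it lies on the opposite strand, was at 2.88 to 3.65. At the 93092 exon bases of Kcnq1ot1 in GENCODE M21, its level corresponds to about 272 to 959 fragments per library. Ascl2, a transcription factor of the placenta, measured 0.0242 to 0.353 FPKM, from 1 to 13 fragments. Phlda2, which restrains placental growth, was listed at 0 in 2 libraries and reached 0.155 FPKM, or 5 fragments, in the highest. These 3 genes were below the limit and were not tested. Igf2, the paternally expressed growth factor gene beside H19, measured 2.92, 3.64 and 4.03 FPKM on PD14, 2.61, 2.94 and 3.85 on PD15 and 2.72, 2.56 and 3.39 on PD16, which overlap between all days. Its log2 change from PD14 to PD16 was -0.22 (95% interval -0.52 to 0.09, adjusted p = 0.375). The ratio of H19 to Igf2 was 6.81 ± 0.46 on PD14, 5.46 ± 0.57 on PD15 and 5.19 ± 1.04 on PD16 (SD, n = 3).

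Over the 9 libraries, 4 of 8 fixed pairs of neighbouring or related imprinted genes were abundant enough for a correlation, and the points of a pair share the library and the day. H19 and Cdkn1c had a Pearson r of 0.77 (permutation p = 0.0177, adjusted over the 4 pairs 0.0708) and a Spearman rho of 0.88 (permutation p = 0.00306, adjusted 0.0122). Without the 2 libraries farthest from the median of H19, PD14 replicates 2 and 3, r was 0.87. Within days, from deviations from the day means, r was -0.60 (permutation p = 0.0856), so the positive relation did not hold within days. The deviations are centred on each day but were permuted freely across days. The within-day p-values are therefore approximate and may be too small. For H19 and Igf2, r was 0.65 (permutation p = 0.0611, adjusted 0.0815), rho 0.60 (permutation p = 0.0967, adjusted 0.130), 0.22 without PD14 replicates 2 and 3 and 0.58 within days. Those 2 libraries were chosen for their distance from the median of H19, and leaving them out narrows its range. Whether the relation rests on them was therefore not decided.

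The Peg3 domain, also on chromosome 7, holds zinc finger genes of both parental kinds. Peg3, a paternally expressed transcription factor gene (chr7:6703892-6730431), measured 14.8, 16.8 and 15.2 FPKM on PD14, 14.6, 18.8 and 12.5 on PD15 and 9.65, 12.2 and 11.3 on PD16. The PD16 libraries lay below all others. The log2 change from PD14 to PD16 was -0.46 (95% interval -0.76 to -0.16) and missed the threshold (adjusted p = 0.0837), and it passed only without PD15 replicate 2 (0.0463). Zim1, its maternally expressed neighbour (chr7:6671269-6696450), measured 1.94, 2.76 and 2.25 FPKM on PD14, 2.12, 2.67 and 1.63 on PD15 and 1.37, 1.63 and 1.69 on PD16. Its log2 change from PD14 to PD16 was -0.37 (95% interval -0.68 to -0.06, adjusted p = 0.153).

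The ratio of Peg3 to Zim1 stayed within 6.06 to 7.65 in all 9 libraries, with day means of 6.82 ± 0.78, 7.20 ± 0.40 and 7.08 ± 0.38 (SD, n = 3). Usp29, a ubiquitin protease gene, starts 147 bases from Peg3 on the other strand, and its window shares the capitals printed above. It measured only 0.195 to 0.395 FPKM, from 84 to 182 fragments, and Peg3 was 36.1 to 60.0 times higher. Over the libraries, Peg3 and Usp29 had an r of 0.68 (permutation p = 0.0453, adjusted 0.0815), a rho of 0.60 (permutation p = 0.0974, adjusted 0.130), 0.46 without PD15 replicate 2 and PD16 replicate 1, and 0.45 within days.

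**Figure D4:**
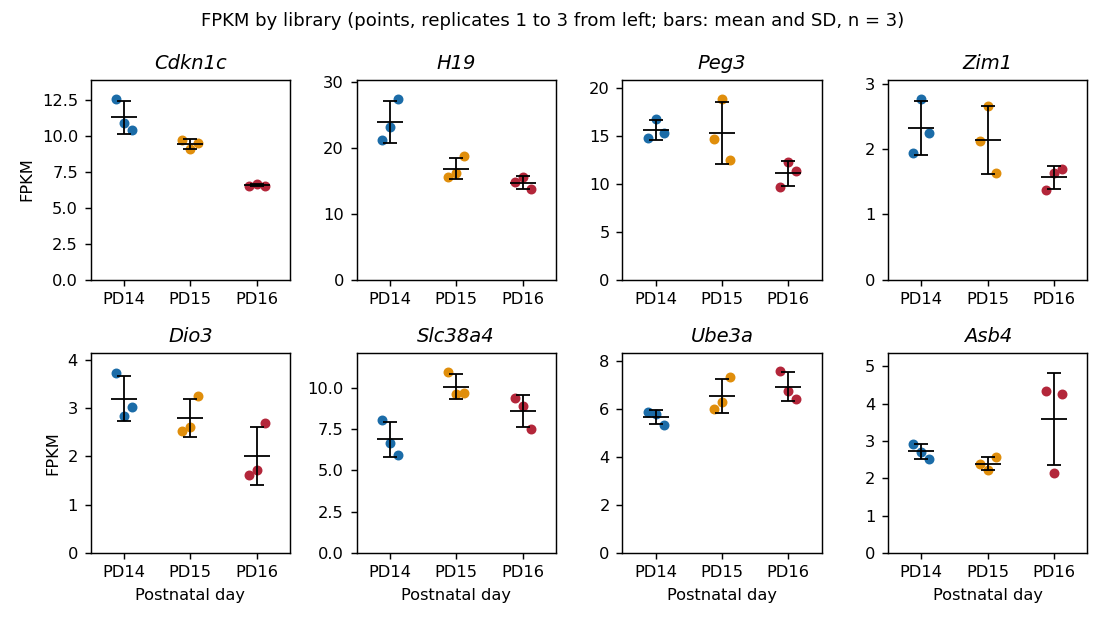
FPKM of 8 imprinted genes by postnatal day, with axes starting at 0. Points are libraries in the order of their replicate number, and bars are the mean and SD of 3 libraries. Cdkn1c and H19 step down without overlap between days, while the 2 high PD16 libraries of Asb4 stand apart from the third.

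In the Dlk1-Dio3 domain of chromosome 12, only Dio3 was above the limit. Dio3, which encodes the deiodinase that inactivates thyroid hormone (chr12:110279068-110281097), measured 3.72, 2.83 and 3.02 FPKM on PD14, 2.53, 2.61 and 3.24 on PD15 and 1.61, 1.71 and 2.69 on PD16. The PD16 libraries were all below those of PD14, with replicate 3 near them. The log2 change was -0.49 (95% interval -0.82 to -0.17, adjusted p = 0.0870), and it passed only without PD16 replicate 3, at -0.65 (adjusted p = 0.0384).

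The maternally expressed noncoding RNAs of this domain were low, with Mirg at 0.193 to 0.487 FPKM, Meg3 at 0.0534 to 0.113 and Rian at 0.00721 to 0.0189. Meg3 rested on 23 to 50 fragments per library. The paternally expressed Dlk1, a membrane protein of progenitor cells, and Rtl1, a retrotransposon-derived gene of the placenta, were listed at 0 in every library. At these depths, 3 fragments would correspond to at most 0.0260 FPKM for Dlk1 and 0.0232 for Rtl1, which covers counting error only. Snurf, whose exons overlap those of Snrpn, was likewise listed at 0 while Snrpn was not, so the zeros are given as listed.

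The Prader-Willi and Angelman domain had 5 of its 6 members above the limit, and limma called 0 of these in any comparison, with 1 at an unadjusted p under 0.05, from PD14 to PD16, where 22.8% of all genes had one. That member was Ube3a, the ubiquitin ligase gene that neurons express from the maternal copy, at 5.87, 5.80 and 5.36 FPKM on PD14, 5.99, 6.31 and 7.34 on PD15 and 7.61, 6.76 and 6.44 on PD16. The PD14 libraries lay below all others, and the log2 change from PD14 to PD16 was 0.25 (95% interval 0.06 to 0.44, adjusted p = 0.118). In GENCODE M21, 27.3% of its exon bases are shared with genes on the opposite strand, Snhg14 among them.

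The paternally expressed members of the domain did not pass in any comparison. Ndn, which restrains growth and is known from neurons, measured 22.2 to 26.5 FPKM, Snrpn, a splicing protein gene, 4.99 to 6.36, Peg12 3.34 to 4.96 and Mkrn3, a brake on puberty in the hypothalamus, 2.22 to 2.94. In GENCODE M21, 34.1% of the exon bases of Snrpn are shared with other genes, Snurf on the same strand among them, so its level is uncertain. The ratio of Ndn to Mkrn3 was 9.60, 9.67 and 9.54 by day. Magel2 was at 0.0181 to 0.106 FPKM, from 2 to 10 fragments, and was not tested.

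In the Peg10-Sgce domain of chromosome 6, Peg10 and Sgce start 99 bases apart on opposite strands, both from the paternal copy. Peg10, a retrotransposon-derived gene needed in the placenta, measured 29.8, 26.1 and 22.4 FPKM on PD14, 33.9, 24.5 and 25.0 on PD15 and 16.6, 21.0 and 23.9 on PD16. The PD16 libraries were below all PD15 libraries (log2 change -0.42, 95% interval -0.78 to -0.06, adjusted p = 0.272). Sgce, which encodes epsilon-sarcoglycan, stayed within 6.01 to 7.79 FPKM. Their r was -0.44 (permutation p = 0.230, adjusted 0.230) with rho -0.33 (permutation p = 0.384), -0.11 without PD15 replicate 1 and PD16 replicate 1, and -0.76 within days (permutation p = 0.0242, adjusted 0.0969). As for H19 and Cdkn1c, the within-day p-value is approximate and may be too small.

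Asb4, a maternally expressed gene for a ubiquitin ligase subunit, measured 2.93, 2.72 and 2.51 FPKM on PD14, 2.38, 2.23 and 2.57 on PD15 and 4.35, 2.15 and 4.26 on PD16. On PD16, replicates 1 and 3 were above every other library and replicate 2 was below all of them. The log2 change from PD14 to PD16 was 0.26 (95% interval -0.14 to 0.67, adjusted p = 0.418). Without PD16 replicate 2 it was 0.51 and passed (adjusted p = 0.0263), and from PD15 to PD16 it was then 0.65 (adjusted p = 0.0358).

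The most abundant members came from single imprinted loci. Nap1l5, a paternally expressed nucleosome assembly protein gene that lies in an intron of Herc3 on the opposite strand, measured 181, 171 and 208 FPKM on PD14, 119, 149 and 162 on PD15 and 210, 190 and 145 on PD16. The PD15 libraries were all below those of PD14, and the log2 change of -0.39 did not pass (95% interval -0.74 to -0.04, adjusted p = 0.290). Nap1l5 was 14.4 to 37.5 times higher than Herc3. Nnat, a small membrane protein gene inside Blcap, measured 110, 109 and 115 FPKM on PD14, 99.2, 97.4 and 107 on PD15 and 125, 133 and 98.0 on PD16, and was 4.005 to 5.07 times higher than Blcap.

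Slc38a4, a paternally expressed amino acid transporter (chr15:96994820-97055956), had the largest positive log2 change of the members tested in any of the 3 comparisons. It measured 8.06, 6.65 and 5.94 FPKM on PD14, 10.97, 9.61 and 9.68 on PD15 and 9.40, 8.93 and 7.49 on PD16. The PD15 libraries lay above all others, and the log2 change from PD14 to PD15 was 0.50 (95% interval 0.25 to 0.75, adjusted p = 0.0871), short of the threshold.

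Growth and signalling genes among the single loci did not pass in any comparison. Grb10, a maternally expressed brake on insulin and IGF signalling, measured 23.3 to 25.2 FPKM, and its 95% interval for PD16 against PD14 was -0.12 to 0.11 on the log2 scale. Plagl1, a zinc finger gene that arrests the cell cycle, measured 23.6 to 30.05 FPKM and Impact, a regulator of translation under stress, 10.1 to 12.0. Gnas, the stimulatory G protein subunit, measured 4.24 to 6.02 FPKM, and 22.0% of its exon bases are shared with genes on the opposite strand. Mest, a hydrolase family gene, measured 18.5, 16.1 and 14.4 FPKM on PD14, 11.0, 15.5 and 12.4 on PD15 and 13.8, 15.9 and 12.1 on PD16, which overlap (PD15 against PD14, log2 change -0.32, adjusted p = 0.324). Of the exon bases of Mest, 23.1% are shared with Copg2 on the opposite strand.

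Mcts2 (9.82 to 11.6 FPKM) and Zrsr1 (3.05 to 4.10) are copies of Mcts1 and Zrsr2 made by retrotransposition, and reads may be split between the copies. Mcts1 measured 1.51 to 1.81 times the level of Mcts2, and Zrsr2 1.54 to 2.19 times that of Zrsr1. Airn, the paternally expressed RNA antisense to Igf2r, measured 2.34 to 2.98 FPKM, and Igf2r, which clears IGF2 from the cell surface, 4.803 to 6.61 times that level. Neither Airn nor Igf2r passed in any comparison.

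By the parental copy known to be expressed where the gene is imprinted, 12 members are maternal and 22 paternal, and some, such as Ube3a and Gnas, are imprinted in few tissues. Of the 7 maternally expressed members tested, 2 fell from PD14 to PD16 and 5 had a log2 change below 0, where 1.89% of all genes fell and 47.8% were below 0. Of the 17 paternally expressed members tested, limma called 0 in any of the 3 comparisons, with 3 at an unadjusted p under 0.05 in each. Of all genes, 14.7% had such a p from PD14 to PD15, 22.8% from PD14 to PD16 and 14.1% from PD15 to PD16, so these members were near the background. Of the 17, 11 had a log2 change below 0 from PD14 to PD16. The difference between the kinds was not tested.

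The libraries of PD14 and PD16 did not overlap for 8 members (33.3%), 7 lower and 1 higher on PD16, against 13.5% of all genes lower, 15% higher and 28.5% in either direction. From PD14 to PD15 this held for 6 members, against 20.6% of all genes, and from PD15 to PD16 for 6, against 19.6%. The 95% interval lay within 0.5 of 0 on the log2 scale for 19, 15 and 17 of the 24 members in PD15 against PD14, PD16 against PD14 and PD16 against PD15, against 80.1%, 76.9% and 79.9% of all genes. For these members a change of more than 1.41-fold of FPKM + 1 lies outside the interval.

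Of 52 further imprinted genes, 34 were tested. From PD14 to PD16, limma called 1 of the 34 higher against 2.36% of all genes, and 0 lower against 1.89%. From PD15 to PD16, 1 was called higher against 0.432% and 0 lower against 0.297%. From PD14 to PD15, 0 were called against 0.678%. In PD15 against PD14, PD16 against PD14 and PD16 against PD15, 3, 7 and 3 had an unadjusted p under 0.05, against 14.7%, 22.8% and 14.1%. The log2 change was below 0 for 15, 20 and 19 of the 34. Osbpl5, an oxysterol-binding protein gene near Cdkn1c, measured 28.3, 33.7 and 31.1 FPKM on PD14, 36.3, 36.2 and 32.5 on PD15 and 38.9, 38.5 and 37.9 on PD16. It rose from PD14 to PD16 by 0.30 on the log2 scale (95% interval 0.14 to 0.47, adjusted p = 0.0494), and this call was kept in 6 of 19 alternatives. Atp10a, a phospholipid flippase gene, measured 7.67, 7.88 and 7.22 FPKM on PD14, 7.10, 6.64 and 6.34 on PD15 and 9.00, 8.55 and 8.72 on PD16. It rose from PD15 to PD16 by 0.34 on the log2 scale (adjusted p = 0.0427), also kept in 6 of 19. Of 24 factors that set or keep imprints, 22 were tested and limma called 0 in any comparison, with 3 at an unadjusted p under 0.05 from PD14 to PD15, 6 from PD14 to PD16 and 5 from PD15 to PD16, against 14.7%, 22.8% and 14.1% of all genes.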

How the data were processed

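RNA of juvenile Kunming mouse ovaries was sequenced in 9 libraries, 3 for each of PD14, PD15 and PD16, grouped by their labels. The authors deposited FPKM in 1 table per library, used as deposited. The submitters' processing notes name HISAT2 2.0.5 and mm10. The counter, annotation and strand setting are not given in the sources used here. Coordinates are those of GENCODE M21. Low values were whole multiples of 1 fragment (within 0.02) for 94.2% to 94.7% of those examined, which gave the depth. Values were analysed as log2(FPKM + 1). The test was limma with an intensity trend over all libraries, on genes whose mean exceeded 1 FPKM in any of the days, with Benjamini-Hochberg adjustment and a threshold of 0.05. All members are named, and other listed genes where they passed a test, as partners or as copies. Correlations used 100000 permutations. Alternatives were pseudocounts of 0.1 and 0.5, filters, scalings, limma's trend and robust settings, a block for the replicate number, only the days compared, and each library left out. The members and lists were chosen with earlier results of these data known. The scripts were tested on simulated data. Fits used limma 3.58.1 in R 4.3.3. Tables and permutations used Python 3.11.15 with SciPy 1.17.1, pandas 2.3.3 and NumPy 2.4.6, and plots Matplotlib 3.10.9.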

Additional observations from a re-analysis of the deposited data

How the results depend on the processing

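The fall of Cdkn1c from PD14 to PD16 passed in all 19 alternatives (adjusted p = 0.00378 to 0.0220) and that of H19 in 18 (0.00522 to 0.0543). The number of members called from PD14 to PD15 was 1 with equal FPKM totals, instead of 0. From PD15 to PD16 it was 0 without a filter and 0 with the replicate block, instead of 1, and in the F test 1 in both, instead of 2. With single libraries left out, the members called numbered 0 from PD14 to PD15, 1 to 3 from PD14 to PD16, 0 to 1 from PD15 to PD16 and 1 to 3 in the F test. The median log2 change of the members then ran from -0.096 to -0.045, from -0.103 to -0.041 and from -0.022 to 0.028 in the 3 comparisons.

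Counts over all genes moved more. From PD14 to PD15, 105 genes were called, 29 without a filter, 58 with a stricter filter, 24 with the block, 47 with only the days compared and 3 to 92 with a library left out. From PD14 to PD16, 659 were called, 172 without a filter, 417 with equal FPKM totals, 227 with the block, 320 with only the days compared and 93 to 666 with a library left out. From PD15 to PD16, 113 were called, 24 without a filter, 56 with the block and 14 to 125 with a library left out. The F test called 469, 95 without a filter, 127 with the block and 74 to 352 with a library left out. The correlation of H19 and Cdkn1c, 0.77, was 0.88 by rank, 0.87 without 2 libraries and -0.60 within days. The cause was not tested for any of these.

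Replicate numbers are shared between the days, but the labels do not pair them. Correlations of deviations were -0.21 to 0.16 between libraries of the same number and -0.20 to 0.21 between others, so the block is not a pairing of samples. Osbpl5 and Atp10a each passed in 6 of 19 alternatives. Members below 0.1 FPKM rest on few fragments, and with 3 libraries per day an exact test of 2 days cannot go below p = 0.1.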

Other observations

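Asb4 was high in PD16 replicates 1 and 3 and low in replicate 2, at 4.35, 4.26 and 2.15 FPKM. On that day 5 of the 6 theca and steroidogenic markers were also lowest in replicate 2. In PD16 replicates 1, 2 and 3, Cyp17a1, the enzyme that makes androgens, measured 41.9, 22.8 and 46.5 FPKM and Cyp11a1, which starts steroid synthesis, 46.6, 16.8 and 35.0. Lhcgr, Insl3 and Star had the same low replicate. Hsd3b1, the most abundant of the list, did not, at 1472, 1284 and 1062. These values were compared after they were seen, and no test was made.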
